A study of Mus musculus with 3 samples.

Results

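Deeply sampled alpha cells are described here from the single-cell library made from islets of *Taf4* mutant mice 1 week after inactivation of the gene. A droplet barcode was counted as a deep alpha cell if it held 8000 or more unique molecular identifiers (UMIs, each standing for 1 captured transcript), under 15% of them from mitochondrially encoded genes, 8% or more from *Gcg*, under 5% from *Ins2* and under 1% from *Sst*. The rule kept 159 of the 2295 barcodes of this library and of the 25524 barcodes of the series, and 159 of the 796 barcodes with 8000 or more UMIs. The members were thus chosen by measured values of the same cells. Deep beta cells, to which they are compared, had 8000 or more UMIs, 5% or more from *Ins2* and under 2% from *Gcg*, and numbered 512. Deep delta cells had 2% or more from *Sst*, under 5% from *Ins2* and under 2% from *Gcg*, and numbered 27.

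The series holds islet cells of C57/Bl6 mice in 3 single-cell libraries, and it asks what loss of Taf4, a subunit of the general transcription factor TFIID, does to beta cells and to the other islet cells. The library labelled WT is described as 300 islets of a wild type male, a sex that its counts go against, as given below. The mutant islets, 300 per library, were pooled from a pair of males, 2 in each case, 1 or 5 weeks after Taf4 inactivation, and cells of the 2 animals were not told apart. In the mutants a floxed *Taf4* gene was cut in adult animals by an insulin-driven, tamoxifen-activated Cre, so that the driver addresses beta cells and alpha cells lie outside its intended range. The study reports beta cells turning towards an alpha-like identity after Taf4 loss. In its lineage tracing at a later time, most *Gcg*-expressing cells inside the islets came from beta cells. Whether any deep alpha cell came from a beta cell was not tested. Islets were dissociated with Accutase, sorted for live cells and captured on the 10X Chromium system, which counts the 3′ ends of transcripts.

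Alpha cells are the glucagon-secreting cells of the islet. They raise blood glucose by acting on the liver, respond to amino acids, adrenaline, low glucose and fatty acids, and are restrained by somatostatin from delta cells and by beta cell products. Their identity rests on transcription factors, the Iroquois homeobox proteins among them, and their main product is cut from proglucagon by the convertase Pcsk2. Because most receptors and transcription factors are present at few copies per cell, cells with many UMIs let members of these families be counted.

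*Gcg*, which encodes proglucagon and lies on chromosome 2 from 62474530 to 62483653 (GRCm38.p6, minus strand), is the gene on which the members were chosen. Its promoter is shown since it drives the transcript that took up the largest share of these cells' UMIs. The stretch covers chr2:62483630-62483903, from 250 bases before the start site to 24 bases after it, and comes from RefSeq. Capitals mark TATAAA, the core of a TATA box, searched on both strands and held by 13.6% of the 32851 promoters of the same length. A copy in reading direction begins 24 bases before the start site, and a copy on the opposite strand begins 72 bases before it.
Gcg: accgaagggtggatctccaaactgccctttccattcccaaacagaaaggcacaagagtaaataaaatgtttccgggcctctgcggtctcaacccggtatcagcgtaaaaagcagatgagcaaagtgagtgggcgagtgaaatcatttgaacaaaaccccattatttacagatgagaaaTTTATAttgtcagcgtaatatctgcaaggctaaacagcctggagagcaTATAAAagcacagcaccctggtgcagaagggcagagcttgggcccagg

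Counting gave 23131247 UMIs for the whole library, with a median of 2759 UMIs per barcode. The 159 deep alpha cells held 3563346 of them, from 8207 to 45357 per cell with a median of 22571, and the 512 deep beta cells 14684322, with a median of 26228 per cell. Between 2129 and 5855 genes were detected in a deep alpha cell, with a median of 4336. All 159 members lie above 1500 detected genes. The study's methods give this number as an upper limit for cells kept, in a passage on the aggregate of the other libraries. The cells that the study reports as analysed at this time point are as many as all barcodes of this library. The limit is therefore not read as having kept the members out of the study's analysis. The libraries labelled WT and 5 weeks were shallower, with medians of 1396 and 2467 UMIs and highest values of 9312 and 16177, so that alpha cells were taken from them by the same composition with 1000 or more UMIs, giving 592 and 2297 cells.

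The library labelled WT goes against its label in 1 respect. It held 17357 UMIs of *Xist*, the RNA of X inactivation, in 71.0% of its barcodes, and none of *Ddx3y*, *Eif2s3y*, *Kdm5d* or *Uty* from the Y chromosome, although the label names a male. *Xist* had 17 UMIs in the 1-week library and 11 in the 5-week library, where *Ddx3y* stood at 64.3 and 34.2 CPM, the UMIs of a gene in every 1000000 UMIs. Comparisons between deep alpha cells and other cells of the 1-week library do not rest on that library, and values from each library are given separately. The 1-week library shared 2 barcodes with the library labelled WT and 5 with the 5-week library, and no deep alpha cell carried a shared barcode.

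Gcg took up 8.27% to 45.5% of the UMIs of a member, with a median of 22.9%. The lowest 3 members had 8.27%, 8.44% and 8.99%, and the nearest barcodes that failed only this limit had 7.98%, 7.86% and 7.68%. Of the 88 barcodes that failed only the *Gcg* limit, 8 lay between 3.09% and 7.98%, and the other 80 had at most 0.372%. For *Ins2* the highest member had 1.61%, and the 3 barcodes that failed only the *Ins2* limit had 12.7%, 21.9% and 22.9%. No barcode failed only the *Sst* or the mitochondrial limit, and 37 failed only the UMI limit, the deepest of them with 7572 UMIs. In the plot of *Gcg* against *Ins2* these 8 barcodes lie between the classes, near the members.

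**Figure D1:**
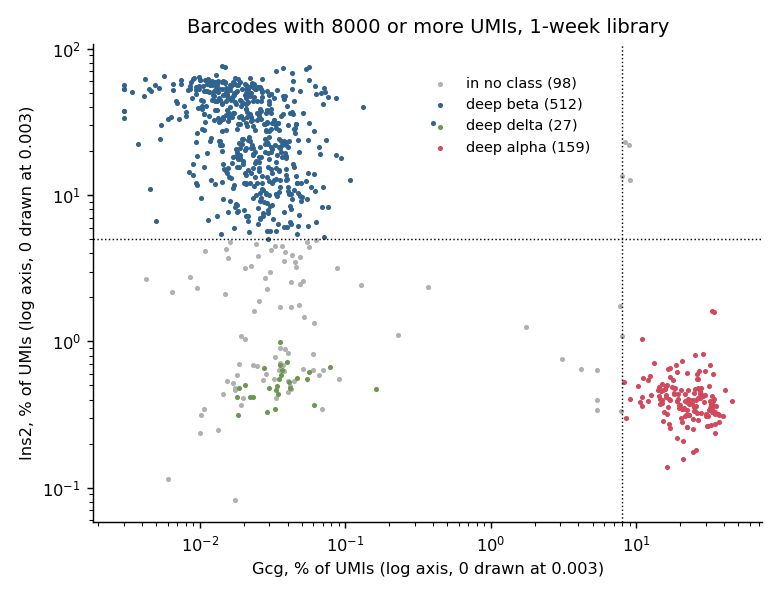
Share of UMIs from Gcg (x axis, %) and Ins2 (y axis, %) for each of the 796 barcodes with 8000 or more UMIs in the 1-week library, both on log axes, with values of 0 drawn at 0.003. Dotted lines mark 8% Gcg and 5% Ins2. The 159 deep alpha cells lie at the lower right, below 1.61% Ins2, and the 98 barcodes in no class include the 8 with 3.09% to 7.98% Gcg that failed only the Gcg limit.

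*Ins2* was present in every deep alpha cell at 17 to 502 UMIs, with a median of 94. Per droplet, alpha cells held 92.3 *Ins2* UMIs (95% interval 90.9 to 93.8), delta cells 95.7 (92.1 to 99.5) and 13 barcodes with macrophage markers 81.7 (76.9 to 86.8), against 10554 in beta cells. The 17 shallower alpha cells of the library held fewer, 36.2 per droplet (33.4 to 39.2), or 0.687% of their UMIs against 0.412% in deep alpha and 1.19% in macrophage-marked droplets. *Ins1* came to 7.42 UMIs per 100 of *Ins2* in alpha cells and to 7.80 in beta cells. The *Ins2* of the members was thus near the count in delta and macrophage-marked droplets and is not read as expression, and how much of it was free RNA was not tested. *Iapp*, islet amyloid polypeptide, did not keep the beta cell ratio: it came to 31.4 UMIs per 100 of *Ins2* in alpha cells against 9.22 in beta cells, and to 29.0 UMIs per alpha droplet against 4.38 per macrophage-marked droplet.

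Marker lists were then set beside the class. Of 15 alpha cell markers 13 were higher in deep alpha than in deep beta cells, and all 16 beta cell markers that could be compared were lower. *Gcg* and *Ins2* are among these markers and were used to choose both classes, so their directions were fixed by the rule. Here and below, higher and lower mean a ratio of CPM from UMIs summed over the cells of 2-fold or more with a 95% interval that leaves out 1, among genes with 20 or more UMIs in both classes together. There was 1 library, so these are descriptions with no test, and all intervals cover counting error only. *Ttr*, transthyretin, a plasma carrier of thyroid hormone, counted 7 to 1254 UMIs per alpha cell with a median of 70 and 6779 CPM against 94.5 CPM in beta cells, a log2 ratio of 6.17 (6.09 to 6.24). *Irx2* counted 0 to 11 UMIs with a median of 2, and stood 6.84 (6.08 to 7.72) higher. *Slc7a2*, the transporter of arginine and lysine, counted 0 to 13 with a median of 3, and its level of 149 CPM against 53.7 CPM was a log2 ratio of 1.47 (1.31 to 1.63). The transcripts *Peg3* at 0.91 and *Sphkap* at 0.25 were the 2 alpha markers that did not reach the fold.

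Markers of cell types outside the endocrine islet were low. Acinar markers summed to 7.58 CPM in deep alpha cells, with *Cel*, *Cela2a* and *Pnlip* at 0 UMIs. Endothelial markers summed to 3.93 CPM with *Kdr* and *Plvap* at 0, and macrophage markers to 14.6 CPM with *Ptprc*, *C1qc* and *Csf1r* at 0. Markers of other endocrine cells were present in part. Of 8 delta cell markers *Hhex*, *Ghsr*, *Ptprz1* and *Spock3* were at 0 and *Sst* never exceeded 0.0174% of a member's UMIs, yet the list summed to 1876 CPM in deep alpha against 130 CPM in deep beta cells, of which *Rbp4* made up 1849 CPM. The 3 PP cell markers summed to 12760 CPM against 215 CPM, nearly all of it *Ppy* and *Pyy*, which are described with the hormones. Among ductal markers *Krt19* and *Sox9* were at 0 while *Spp1*, osteopontin, stood at 184 CPM against 9.19 CPM in beta cells. No doublet caller was run, and the limits on *Ins2* and *Sst* keep out barcodes with much of a second hormone of these kinds.

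Across all genes, 1361 of 11360, or 12%, were higher in deep alpha than in deep beta cells and 1020, or 8.98%, were lower, with a median log2 ratio of 0.06. The split depends on the scale, since hormone transcripts take up different shares of the 2 classes. With the hormone and mitochondrial genes left out of the total, every log2 ratio falls by 0.39, 815 genes are higher and 1941 lower, and higher genes make up 29.6% of those past the fold against 57.2%. Thinning every cell to 8000 UMIs gave a share of 46.2%. Levels below are on the CPM scale unless another is named, and counts of a list are to be read against the shares of 12% and 8.98%. Log2 ratios above 0.39 or below 0 keep their sign without the hormones, while those that exceed the fold by less than 0.39 fall under it. The driver acts in beta cells, so deep alpha cells are set here against beta cells in which the gene was to be inactivated, and ratios from the library labelled WT are given further down.

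**Figure D2:**
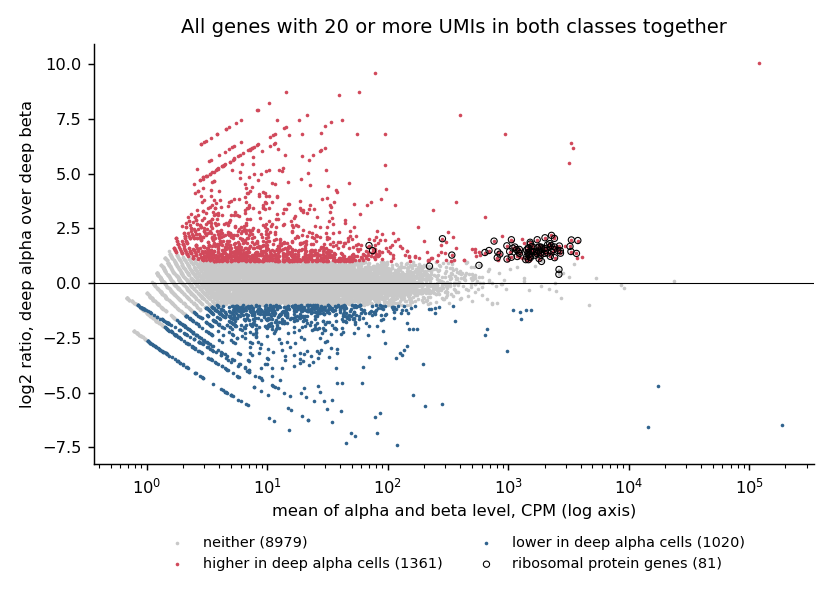
Log2 ratio of deep alpha over deep beta cells (y axis) against the mean level of both classes in CPM (x axis, log) for the 11360 genes with 20 or more UMIs in both classes together. Red points are the 1361 higher genes, blue points the 1020 lower genes and grey points the rest; the 81 ribosomal protein genes, circled, lie above 0 with a median of 1.47.

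The listed transcription factors of alpha cell identity were higher as a group. All 8 on the list were higher, with a median log2 ratio of 6.12 against 0.06 over all genes. The list was made of genes known for alpha cells, with earlier results of these data known. Its direction is thus no independent evidence. The list counts *Smarca1*, a chromatin remodeller and not a transcription factor. It also shares members with the alpha markers above, *Irx1* and *Irx2* among them. *Pou3f4*, a POU homeobox gene, had 27 UMIs in 24 of 159 alpha cells and none in 512 beta cells, at 7.58 CPM. With the 0 in beta cells taken as a floor of 3 counts over the class, as for every gene at 0 here, *Pou3f4* was 37.1-fold higher. Folds at this floor leave out the counting error of the other class and are not lower limits. It had no UMI in the 27 delta cells either, where 3 counts would be 5.88 CPM.

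The Iroquois gene *Irx1* was found in 132 alpha cells and 4 beta cells, with 0 to 12 UMIs per alpha cell and a median of 2. Its log2 ratio was 8.72 (7.35 to 10.60). *Etv1*, an ETS factor, and *Smarca1*, the ATPase of the chromatin remodeller NuRF, were higher by 5.40 and 3.78, yet delta cells held more of both, at 237 and 112 CPM against 184 and 34.5 CPM in alpha cells.

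Factors of beta cell identity were low. All 6 that could be compared were lower, with a median of −4.19, on a list of known beta cell factors made in the same way. *Mafa*, an activator of insulin genes, counted 29 UMIs in 25 alpha cells and 5882 in 416 beta cells, and *Pdx1* 18 and 1729 UMIs. *Nkx6-1* was detected in 46 of 159 alpha cells with at most 5 UMIs each, against 475 of 512 beta cells, and its log2 ratio was −3.18 (−3.50 to −2.87), against −5.62 for *Mafa* and −4.54 for *Pdx1*. When the UMIs of macrophage-marked droplets were subtracted as an estimate of free RNA, all 6 stayed lower, with a median of −4.12. This could hardly have come out otherwise and is no check of these factors. *Pdx1* had no UMI in those droplets, and endothelial markers, all at 0 there, moved alike, from 0.10 to 0.17.

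Factors shared by islet endocrine cells were near equal. Of 23 compared, 1 was higher and 2 were lower, with a median of −0.08. *Pax6* stood at 116 CPM against 159 CPM, *Isl1* at 75.8 against 84.7 CPM, *Nkx2-2* at 44.9 against 47.5 CPM and *Foxa2* at 67.3 against 60.1 CPM. *Fev*, an ETS factor known from serotonergic neurons and endocrine precursors, was the exception on the higher side with 98 UMIs in 68 alpha cells and 7 in 6 beta cells, a log2 ratio of 5.85 (4.75 to 7.20). *Insm1* and *Hnf4g* were lower, by −1.16 and −1.35. Of the 23 factors for which the study describes regulons, 8 were higher and 4 lower, among them *Arnt2* at 3.22, *Myc* at 2.07, *Maff* at 2.03 and *Foxp1* at 1.49 on the higher side. That list was chosen by the study on these samples and is no independent evidence of a direction.

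Receptors for hormones and neurotransmitters differed in both directions. Of 21 with enough UMIs, 6 were higher and 12 lower, with a median of −1.43, against 12% and 8.98% of all genes. *Adrb1*, the beta-1 adrenergic receptor, had 60 UMIs in 48 alpha cells and none in beta or delta cells, at 16.8 CPM (12.8 to 21.7). At the floor it was 82.4-fold higher than in beta cells. *Sstr2*, a somatostatin receptor, had 58 UMIs in 34 alpha cells and none in beta cells, at 16.3 CPM (12.4 to 21.0) and 79.7-fold higher at the floor. *Sstr3*, another somatostatin receptor, was found in 54 alpha and 305 beta cells and did not reach the fold, at −0.86 (−1.22 to −0.51).

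Among glutamate and GABA receptors the directions were mixed. The AMPA receptor subunits *Gria2* and *Gria3* stood at 123 and 41.8 CPM against 10.3 and 3.54 CPM in beta cells, log2 ratios of 3.58 and 3.56. *Gria2* counted 0 to 14 UMIs per alpha cell with a median of 2 and was seen in 129 cells. Of the 2 subunits of the GABA-B receptor, *Gabbr1* was higher at 1.36 (1.04 to 1.68) and *Gabbr2* lower at −2.73, with 5 UMIs in all alpha cells together. *Oxtr*, the oxytocin receptor, had 15 UMIs in 14 alpha cells and 9 in beta cells, a log2 ratio of 2.78 (1.49 to 4.15).

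On the lower side stood receptors through which beta cells are known to be regulated. *Gcgr*, the glucagon receptor, had 0 UMIs in 159 alpha cells, which allows up to 0.842 CPM, against 105 UMIs in 87 beta cells. It was 8.49-fold lower at the floor. *Glp1r* had 1 UMI against 46, a log2 ratio of −3.48 with a wide interval of −8.81 to −0.93, and *Gipr* 19 against 189, at −1.27 (−2.04 to −0.59). *Prlr*, the prolactin receptor, had 3 UMIs in alpha and 1555 in beta cells. The alpha-2A adrenergic receptor *Adra2a* had 4 and 355, the muscarinic receptor *Chrm3* 2 and 219, the galanin receptor *Galr1* 1 and 132, and the purinergic receptor *P2ry1* 0 and 122 UMIs. The insulin receptor *Insr* stood at 20.5 against 19.3 CPM, a log2 ratio of 0.08 (−0.31 to 0.46), while *Igf1r* was lower at −2.38 and *Ghr*, the growth hormone receptor, at −1.43.

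Among 8 receptors for nutrients, 2 were higher and 2 lower, against 12% and 8.98% of all genes. *Ffar4*, which senses long-chain fatty acids, counted 0 to 6 UMIs per alpha cell with a median of 1 and was found in 111 alpha and 16 beta cells, a log2 ratio of 5.18 (4.57 to 5.85). *Ffar1*, the other long-chain fatty acid receptor, went the opposite way with 6 UMIs in alpha and 275 in beta cells, at −3.48 (−4.93 to −2.33). *Casr*, the calcium-sensing receptor, was higher at 1.59 and the orphan receptor *Gpr158* lower with 2 UMIs against 453. *Gpr119*, a receptor for fatty acid amides, had 19 UMIs in 17 alpha cells and did not reach the fold at 0.86 (0.00 to 1.67).

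Growth factor receptors showed 8 of 20 higher and 4 lower, with a median of 0.62, against 12% and 8.98% of all genes. With hormones and mitochondrial genes left out of the total, 6 were higher and 4 lower, with a median of 0.23. *Kit*, the stem cell factor receptor, counted 49 UMIs in 38 alpha cells and 3 in beta cells, a ratio of 67.3 with a log2 interval of 4.44 to 8.40. The GDNF family co-receptors *Gfra1* and *Gfra3* had 50 and 24 UMIs in alpha cells against 3 and 2 in beta cells, whereas *Ret*, the kinase they signal through, was lower at −1.82 (−2.63 to −1.12). *Fgfr1* was higher at 3.38 and *Il6st*, the shared chain of the interleukin 6 receptors, at 1.19. *Ntrk2*, the receptor of brain-derived neurotrophic factor, was lower at −3.01, and *Egfr* had no UMI in alpha cells against 99 in beta cells.

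**Figure D3:**
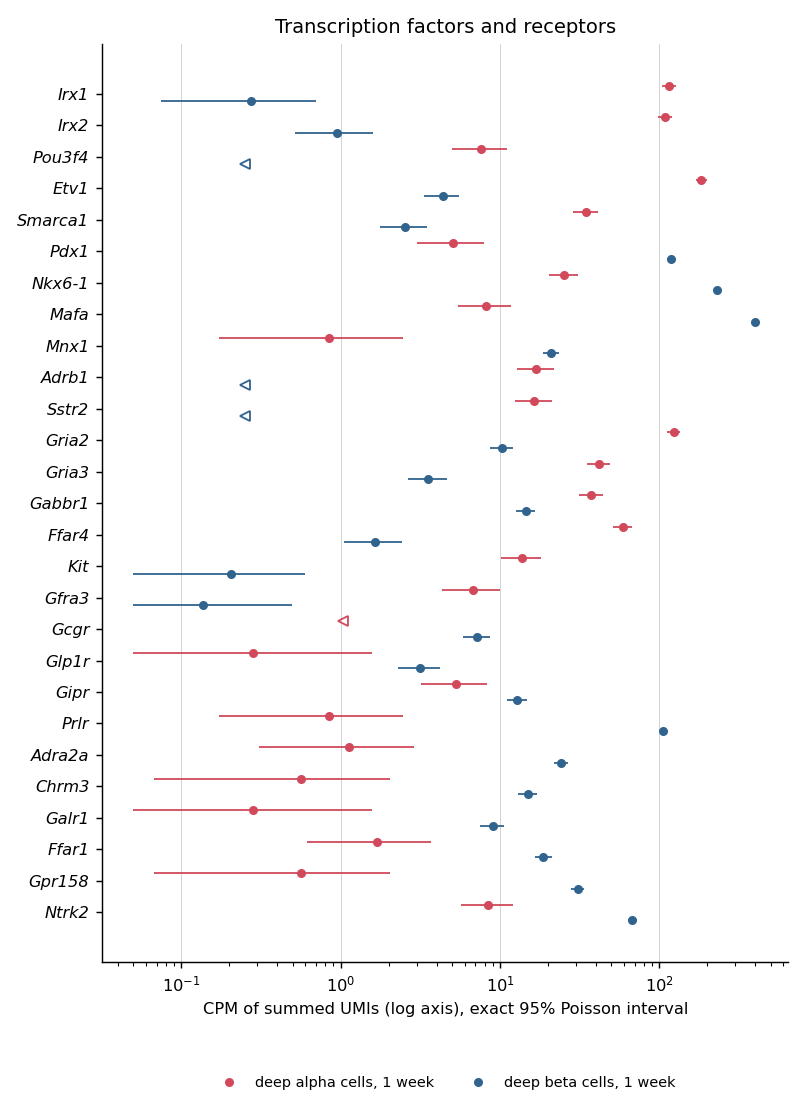
Levels in CPM (x axis, log) of 9 listed factors, the remodeller Smarca1 among them, and 18 receptors in 159 deep alpha cells (red) and 512 deep beta cells (blue) of the 1-week library. Points are CPM of summed UMIs with exact 95% Poisson intervals, cut at 0.05 CPM, and open triangles mark the upper end of the interval where no UMI was counted, as for Pou3f4, Adrb1 and Sstr2 in beta cells and for Gcgr in alpha cells.

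The hormones beside glucagon varied widely. *Gcg* counted 1387 to 15566 UMIs per alpha cell with a median of 4947, and its 243011 CPM against 228 CPM is the contrast that chose the cells. *Ppy*, pancreatic polypeptide, ran from 0 to 4037 UMIs per alpha cell with a median of 17, and 24 members held 1% or more of their UMIs as *Ppy*, 4 of them 5% or more, while 24 members held none. *Pyy*, peptide YY, ran from 0 to 1399 UMIs with a median of 60, and 24 members reached 1%. Both hormones reached 1% in 6 members. In deep delta cells *Ppy* and *Pyy* stood at 27356 and 44844 CPM, above the 6518 and 6238 CPM of alpha cells. *Gdf15*, a stress-induced circulating factor, was higher than in beta cells at 3.56 (3.36 to 3.77) and was found in 133 alpha cells.

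The prohormone convertases stood in opposite directions. *Pcsk1*, the convertase that cuts proinsulin, had 5 UMIs in 5 alpha cells against 2389 in 460 beta cells, a log2 ratio of −6.86 (−8.48 to −5.63). *Pcsk2*, which cuts proglucagon, counted 9 to 98 UMIs in every alpha cell with a median of 43 and was higher at 1.04 (1.00 to 1.08). Its chaperone *Scg5* was higher at 1.18, the inhibitor *Pcsk1n* at 1.71, the amidating enzyme *Pam* at 1.29 and *Resp18* at 2.10. Under the scale without hormones and mitochondrial genes *Pcsk2* falls to under 2-fold, and the 17 granule genes show 3 higher and 4 lower in place of 6 and 2. The granins *Chga* at −0.67 and *Chgb* at −0.56 did not reach the fold and *Scg2* was lower at −1.30.

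Of 12 secreted proteins, 8 were higher and 2 lower, with a median of 2.02, against 12% and 8.98% of all genes. *Rbp4*, retinol-binding protein, counted 1 to 139 UMIs in every alpha cell and was higher at 6.84 (6.65 to 7.03), and *Gc*, the vitamin D binding protein, at 3.48. *Ang*, angiogenin, stood at 1151 CPM against 141 CPM, and *Wnt4*, a Wnt ligand, at 1107 against 537 CPM. *Rbp4* is listed as a delta cell marker and stood at 5615 CPM in deep delta cells, 1849 CPM in deep alpha cells and 16.1 CPM in beta cells. *Sema3e*, a guidance ligand, had 55 UMIs in 44 alpha cells and 3 in beta cells.

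Metabolic genes stood in both directions. *Hk1*, a hexokinase of high glucose affinity, had 53 UMIs in 43 alpha cells and none in beta cells, and *Pdk4*, a kinase that shuts off pyruvate dehydrogenase, had 80 UMIs in 51 alpha cells and none in beta cells. At the floor they were 72.8-fold and 110-fold higher. The glucose transporter *Slc2a2* had 3 UMIs against 395, and *G6pc2*, an islet glucose-6-phosphatase, 2 against 1307. Over 27 genes of glucose handling 5 were higher and 5 lower with a median of −0.01, against 12% and 8.98% of all genes. *Slc16a1*, a lactate and pyruvate carrier that beta cells are known to keep silent, had 22 UMIs in 19 alpha cells and 3 in beta cells.

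Of 16 amino acid transporters 4 were higher and 1 lower, against 12% and 8.98% of all genes, or 3 and 3 with hormones and mitochondrial genes left out of the total and 4 and 4 with free RNA subtracted. Beside *Slc7a2*, the glutamine transporter *Slc38a5* had 45 UMIs in 27 alpha cells and none in beta cells, 61.8-fold higher at the floor, with up to 8 UMIs in a cell. *Slc1a5*, a carrier of neutral amino acids, was higher at 3.45 (2.61 to 4.35) and *Slc7a8*, a partner of *Slc3a2*, at 1.20, while *Slc38a4* was lower at −1.12.

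Ion channels showed 7 higher and 6 lower of 31, against 12% and 8.98% of all genes. *Kcnk3*, the acid-sensitive potassium channel TASK-1, counted 0 to 20 UMIs with a median of 3, was found in 138 alpha and 12 beta cells and was higher at 6.83 (6.25 to 7.49). *Kcnip3*, a calcium-binding channel partner, had 82 UMIs in 52 alpha cells and none in beta cells. *Kcnj6*, a channel opened by inhibitory G proteins, was higher at 3.97, *Kcnk16* at 3.39 and the sodium channel *Scn3a* at 3.13. *Trpm5*, a cation channel, had 0 UMIs against 103, and *Scn9a* was lower at −1.13. The subunits of the ATP-sensitive potassium channel, *Kcnj11* at 31.7 against 30.7 CPM and *Abcc8* at 197 against 234 CPM, lay close together.

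In cAMP and calcium signalling 7 of 27 were higher and 3 lower, against 12% and 8.98% of all genes, or 6 and 6 with hormones and mitochondrial genes left out of the total. *Gnas*, the stimulatory G protein, counted 8 to 265 UMIs in every alpha cell with a median of 45 and was higher at 1.77 (1.73 to 1.80). *Gnai2*, an inhibitory G protein, counted 0 to 18 UMIs with a median of 4 and was lower at −2.38 (−2.49 to −2.27). For *Gnai2* the alpha over beta ratio was 0.01 in the library labelled WT and 0.45 at 5 weeks, with alpha levels of 139 and 173 CPM close to the 207 CPM of deep alpha cells, and it was the beta cells that differed, at 137, 126 and 1078 CPM. *Pde4d*, a cAMP phosphodiesterase, was higher at 4.50 and *Itpr1*, a calcium release channel, at 1.75.

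In the exocytosis list 3 of 29 were higher and 5 lower, near the shares of 12% and 8.98% over all genes, or 1 and 9 with hormones and mitochondrial genes left out of the total. *Sytl2*, a granule-tethering synaptotagmin-like protein, had 52 UMIs in 35 alpha cells and 3 in beta cells, while its relative *Sytl4*, granuphilin, had 5 and 1182 UMIs. Of 20 adhesion and guidance genes 8 were higher and 6 lower, against the same shares of 12% and 8.98%. *Nxph1*, a neurexin ligand, was higher at 6.07, *Nlgn1* at 5.55 and *Ncam1* at 1.58, and *Gjd2*, the gap junction protein of beta cells, was lower at −3.17 and E-cadherin, *Cdh1*, at −1.49. The neurexin relative *Cntnap2* had 1 UMI against 297 and the guidance receptor *Robo1* 3 against 317.

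The largest ratios among genes with 100 or more UMIs belonged to genes of several functions, on the lists and outside them. *Higd1a*, a small protein of the inner mitochondrial membrane, had 559 UMIs in 148 alpha cells and 3 in beta cells, a ratio of 768 with a log2 interval of 8.03 to 11.87. *Gpx3*, a secreted glutathione peroxidase, counted 2 to 67 UMIs in every alpha cell with a median of 15 and was higher at 7.67 (7.29 to 8.07). *Edn3*, endothelin 3, had 102 UMIs in 57 alpha cells and none in beta or delta cells. *Id1*, an inhibitor of basic helix-loop-helix factors, was higher at 6.82, *Sfrp5*, a secreted Wnt inhibitor, at 6.19 and *Arg1*, arginase 1, at 6.04. At the other end stood *G6pc2*, *Prlr*, *Pcsk1*, *Ins1*, *Ucn3*, the estrogen receptor *Esr1* with 2 UMIs against 558, and *Gad1*, the GABA-synthesizing enzyme, at −5.40.

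Cytosolic ribosomal protein genes were higher almost without exception. Of 81, 76 were past the fold and none was lower, with a median of 1.47, and together they made up 201605 CPM in deep alpha cells against 72642 CPM in deep beta cells. With hormones and mitochondrial genes left out of the total, 51 of 81 remained past the fold, with a median of 1.07. The same 81 genes had a median alpha over beta ratio of 1.47 in the library labelled WT and of 1.66 at 5 weeks, with 76 and 75 past the fold. Nuclear genes of oxidative phosphorylation, with 1 of 85 higher and 1 lower and a median of −0.14, and mitochondrially encoded genes, with none of 13 past the fold, mostly stayed under the fold.

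*Taf4* itself had 26 UMIs in deep alpha cells, at most 1 per cell, and 109 in deep beta cells, or 7.30 (4.77 to 10.7) and 7.42 (6.09 to 8.95) CPM. The library counts 3′ ends, and whether the counted end lies in the deleted part was not examined, so this level does not check the deletion. Of 16 TFIID subunits *Taf8* was higher at 1.28 (0.40 to 2.12) and *Taf13* lower at −1.52 (−2.05 to −1.04).

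The stress response was compared with beta cells first. Over 29 genes of the integrated and endoplasmic reticulum stress response, 2 were higher and 8 lower than in deep beta cells, with a median of −0.39. Of all genes, 12% were higher and 8.98% lower. Without the beta cells above the median of *Ddit3*, 4 of 28 were higher and 5 lower, with a median of 0.05. With hormones and mitochondrial genes left out of the total, 1 was higher and 13 lower, with a median of −0.78. The direction of the list thus depends on the beta cells and the scale chosen. *Ddit3*, the transcription factor CHOP, counted 0 to 74 UMIs per alpha cell with a median of 17 and was found in 158 of 159 members. Its 833 CPM stood below the 1962 CPM of beta cells, a log2 ratio of −1.24 (−1.29 to −1.18), and *Hspa5*, the chaperone BiP, was lower at −1.23 (−1.29 to −1.17). Both turned when the beta cells above the median of *Ddit3* were left out, to 0.86 and 0.15, a choice that by itself sets the *Ddit3* level of the beta cells kept. *Atf5*, a relative of *Atf4*, stood at 404 against 489 CPM, the pseudokinase *Trib3* at 97.9 against 92.5 CPM and asparagine synthetase, *Asns*, at 158 against 199 CPM, none past the fold. *Chac1*, which degrades glutathione, was lower at −1.79 and *Nupr1*, a stress-induced chromatin protein, at −3.08.

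Other genes of cellular state were mixed, and their counts stand against 12% higher and 8.98% lower of all genes. Of 17 immediate early genes 5 were higher than in deep beta cells, among them the Krüppel-like factors *Klf4* at 3.25 and *Klf6* at 1.65 and *Jun* at 1.49, and 3 were lower, *Fos*, *Egr1* and *Junb*. Of 12 heat shock chaperones the mitochondrial pair *Hspd1* and *Hspe1* stood just past the fold at 1.01 and 1.06, and *Hspa1a* and *Hspa1b* were lower on 13 and 5 UMIs, a direction that turned, to 0.72 and 0.50, among cells with 15000 or more UMIs. Of 23 antioxidant genes and metallothioneins 3 were higher and 4 lower, with the cystine transporter *Slc7a11* at 1.97 and the peroxiredoxin *Prdx4* at 1.30 beside *Gpx3* on the higher side, and the quinone reductase *Nqo1* at −2.08 and *Mt2* at −1.24 on the lower side. The immunoproteasome subunits *Psmb8* at −1.06 and *Psmb9* at −1.43 were the 2 of 15 antigen presentation genes past the fold. *Gadd45b*, a DNA damage and stress response gene, was higher at 2.28 with 180 UMIs in alpha cells.

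Promoters of 3 of these genes are shown because they hold TGATGNAA, the letters of the C/EBP-ATF response element, in which N is any base. Both strands were searched, and 7 of the 29 listed genes with a promoter in RefSeq held the letters, namely *Asns*, *Atf3*, *Chac1*, *Fgf21*, *Herpud1*, *Nupr1* and *Trib3*, or 24.1% against 4.51% of all 27025 genes and 3.97% of all 32851 promoters. TATAAA does not overlap it in the stretches shown, capitals mark it, and a match is a description only. *Trib3* is shown at chr2:152344037-152344096 on the minus strand with the match 14 bases after the start site, *Chac1* at chr2:119351023-119351082 on the plus strand with the match 193 bases before it, and *Asns* at chr6:7693199-7693258 on the minus strand with the match 23 bases before it.
Trib3: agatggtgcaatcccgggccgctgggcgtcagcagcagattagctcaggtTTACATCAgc
Chac1: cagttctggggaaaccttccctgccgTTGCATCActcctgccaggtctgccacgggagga
Asns: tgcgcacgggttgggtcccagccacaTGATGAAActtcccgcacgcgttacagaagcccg

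Against the 27 deep delta cells 251 of 9453 genes, or 2.66%, were higher in deep alpha cells and 1694, or 17.9%, were lower. The delta class held only 509874 UMIs, so small counts there carry wide intervals. Of the 1193 genes higher than in beta cells that could be compared with delta cells, 148 were also higher and 119 lower than in delta cells. Of 519 genes lower than in beta cells, 350 were also lower than in delta cells. *Ffar4* at 143 CPM, *Gria2* at 96.1 CPM and *Gpx3* at 604 CPM were thus present in delta cells, whereas *Adrb1*, *Kit*, *Kcnip3* and *Pdk4* had no UMI there.

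The alpha over beta ratio was then taken in the other libraries, whose cells the rule did not use. In the library labelled WT 1919 of 10311 genes, or 18.6%, were higher in alpha than in beta cells and 289, or 2.8%, lower. At 5 weeks 2458 of 11861, or 20.7%, were higher and 467, or 3.94%, lower. Of the 1361 genes higher in deep alpha cells, 982 could be compared in the library labelled WT and 561 of them, 57.1%, were past the fold in the same direction, and 915 of 1263, 72.4%, at 5 weeks. The share in the library labelled WT was 68.5% with a limit of 500 UMIs and 28.3% with a limit of 2000 UMIs, which left 24 alpha cells. Of the 1020 lower genes the shares were 21.1% of 938 and 29.9% of 993. Ratios of beta cell genes were smaller in the shallower libraries, as for *Ins2*, with −6.48 in deep cells, −4.63 in the library labelled WT and −4.37 at 5 weeks.

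Alpha cell factors held their place in each library. All 7 that could be compared were higher in the library labelled WT, with a median of 5.58, and all 8 at 5 weeks, with a median of 6.41. *Gria2* had ratios of 4.19 and 3.71 there, *Kcnk3* of 5.93 and 4.66 and *Pdk4* of 7.39 and 6.58. The receptors *Adrb1* and *Sstr2* had 2 and 8 UMIs in alpha cells of the library labelled WT, too few to compare, and 33 and 51 UMIs at 5 weeks, where their ratios were 7.62 and 5.66. Some genes had ratios of the other sign in another library. *Neat1*, a nuclear long non-coding RNA, was higher in deep alpha than in deep beta cells at 1.15 (1.05 to 1.26) but stood at −2.04 and −1.38 in the library labelled WT and at 5 weeks. In the same order *Ffar1*, at −3.48 in deep cells, stood at −1.47 and 1.23, and the exocytosis GTPase *Rab37*, at −1.77 in deep cells, stood at 0.71 and 2.13.

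Levels of alpha cells were also set side by side between libraries. Of 9282 genes compared, 2709, or 29.2%, were higher in the deep alpha cells at 1 week than in alpha cells of the library labelled WT and 416, or 4.48%, were lower. Against alpha cells at 5 weeks 2920 of 10468, or 27.9%, were higher and 717, or 6.85%, lower. Both comparisons use the same 1-week cells. The medians over all genes were 0.71 and 0.56, so counts of a list are to be read against those shifts. *Gcg* stood at 243011 CPM in deep alpha cells, 365330 in the library labelled WT and 417378 at 5 weeks. Acinar markers stood at 7.58, 11364 and 1606 CPM. Genotype, time, animals, library, depth and the share of free RNA differ together between these libraries and cannot be told apart. The library labelled WT also differs from the others in its *Xist* and Y-linked counts, so sex may differ there as well.

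Single genes of the integrated stress response differed more than the list as a whole. Of 28, 14 were higher in the deep alpha cells and 2 lower than in the library labelled WT, with a median of 1.04. Of all genes 29.2% were higher and 4.48% lower there, with a median of 0.71. Against 5 weeks 14 were higher and 3 lower, with a median of 0.83. Of all genes 27.9% were higher and 6.85% lower in that comparison, with a median of 0.56. *Ddit3* stood at 833 CPM at 1 week, 29.5 CPM in the library labelled WT and 96.1 CPM at 5 weeks. *Trib3* stood at 97.9, 1.28 and 1.06 CPM, *Atf5* at 404, 11.6 and 7.81 CPM, and *Gdf15* at 213, 6.42 and 6.33 CPM in the same order. The 17 shallower alpha cells of the 1-week library, with 1303 to 7572 UMIs, had 905 CPM of *Ddit3*, 391 CPM of *Atf5* and 89.4 CPM of *Trib3*, so the shallower cells of the library showed such levels as well. Beta cells also differed between the libraries. Summed over the list, they stood at 10265.8 CPM at 1 week, 3486 in the library labelled WT and 5854 at 5 weeks. Alpha cells stood at 5849, 2844 and 3888 CPM in the same order.

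Metallothioneins stood higher in the 1-week cells as well. *Mt1* and *Mt2*, which bind zinc and copper, stood at 3157 and 927 CPM in deep alpha cells, 158 and 12.8 CPM in the library labelled WT, and 272 and 46.2 CPM at 5 weeks. *Txnrd1*, thioredoxin reductase, stood at 209, 25.7 and 31.0 CPM. Summed over the antioxidant and metallothionein list, alpha cells of these libraries stood at 7343, 3007 and 2405 CPM. Beta cells stood at 10959.5, 2030 and 2486 CPM in the same order, so the difference was not particular to alpha cells. Of 21 antioxidant genes and metallothioneins 9 were higher and 1 lower than in the library labelled WT, with a median of 0.79. Of all genes 29.2% were higher and 4.48% lower there, with a median of 0.71, so the list median lay near that of all genes.

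Genes that respond within minutes to handling or stimulation were low in the deep alpha cells. Of 16 immediate early genes 12 were lower than in the library labelled WT and 1 was higher, with a median of −2.30. Of all genes 4.48% were lower and 29.2% higher there. Against 5 weeks 16 of 18 were lower, with a median of −3.18, beside 6.85% of all genes. *Fos* had 10 UMIs in 6 deep alpha cells, or 2.81 CPM, against 553 CPM in the library labelled WT and 1025 CPM at 5 weeks. The heat shock chaperones *Hspa1a*, *Hspa1b* and *Hspb1* stood at 3.65, 1.40 and 2.53 CPM against 652, 565 and 706 CPM in the library labelled WT. *Atf3*, which is on the stress list and on the immediate early list, stood at 38.7, 238 and 511 CPM and so went with the second group.

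**Figure D4:**
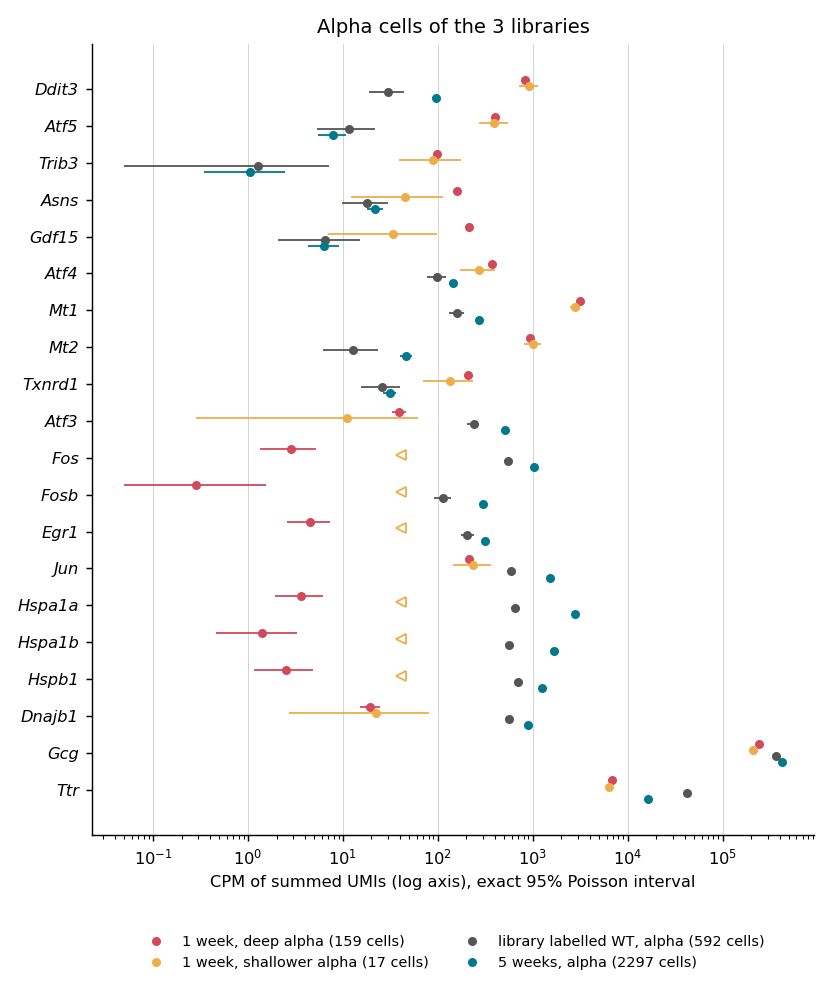
Levels in CPM (x axis, log) of 20 genes in 159 deep and 17 shallower alpha cells at 1 week and in alpha cells of the library labelled WT (592) and at 5 weeks (2297). Points are CPM of summed UMIs with exact 95% Poisson intervals cut at 0.05 CPM, and open triangles the upper end of the interval where no UMI was counted. Ddit3, Atf5, Trib3, Mt1 and Mt2 are highest in the 1-week cells, and Fos, Egr1 and the Hspa1 genes lowest.

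The spread among the deep alpha cells is given as variance over mean, a measure that grows with the level of a gene. After each cell was thinned to 8000 UMIs, it was 280 for *Ppy*, with 0 to 823 UMIs per cell and a median of 6, 202 for *Gcg*, with 687 to 3642 and a median of 1850, and 91.6 for *Pyy*, with 0 to 437 and a median of 26. A gene with counting error alone would have a ratio near 1. *Malat1*, a nuclear RNA, followed with 24 to 861 UMIs, *Ttr* with 2 to 275 and *Iapp* with 0 to 178. *Nupr1* was at 0 in the median cell and at 51 and 50 in the highest cells, and the next held 17. The cells with 51 and 50 held 655 and 602 UMIs of *Ppy* and 849 and 857 of *Gcg*. *Spp1* was at 0 in the median cell and at 31 in the highest. The ratio was 1.22 for the factor *Irx1* and 0.89 for the receptor *Adrb1*, both genes with few UMIs per cell. At this depth cells with and without a UMI of *Adrb1* could thus not be told apart from counting. These ratios do not speak for other factors and receptors.

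Some of the variable genes rose and fell together among the 159 cells, which share 1 library and, after thinning, 1 fixed total. *Wnt4* and *Ang* had a Spearman correlation of 0.605, and *Wnt4* and *Gnas* of 0.44. The sum of ribosomal protein genes and *Gcg* had −0.62, 2 quantities that both take up large shares of the fixed total. *Ppy* and *Pyy* had 0.29 and *Ddit3* and *Gcg* −0.08. These are descriptions across cells and not tests.

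**Figure D5:**
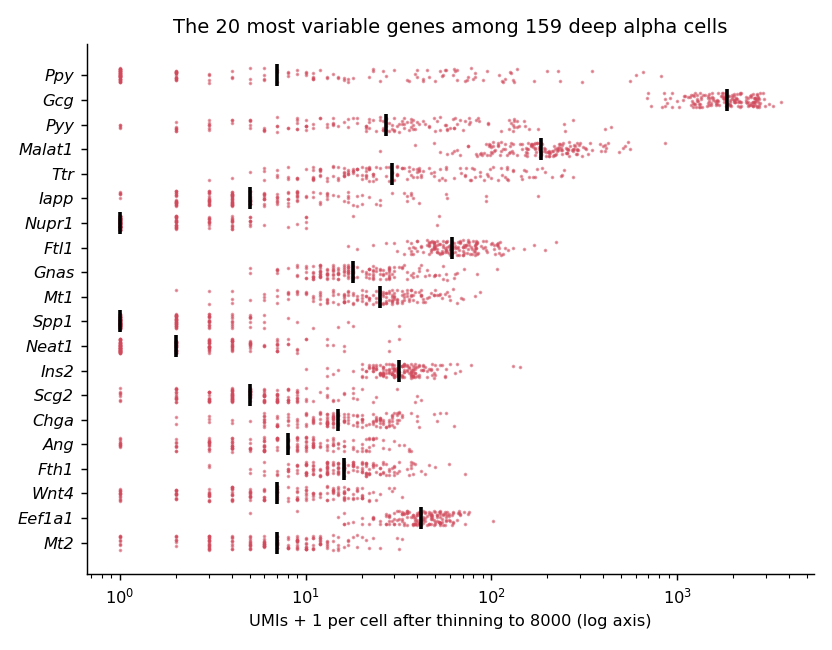
UMIs plus 1 per cell after thinning each of the 159 deep alpha cells to 8000 UMIs (x axis, log) for the 20 genes with the highest variance over mean. Each point is a cell and each black tick the median. Ppy spreads from 0 to 823 UMIs around a median of 6, while Gcg spreads from 687 to 3642.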

How the data were processed

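The authors aligned reads to mm10 with Cell Ranger 3.1 and deposited, per library, a table of raw UMI counts per gene and barcode. The submitters' processing notes also name bcl2fastq 2.17.1.14 and Seurat 3.1.4. In the library labelled WT the authors removed doublets and reduced the cells to 12000. Counts were used as deposited. UMIs were summed per class and given as CPM with exact Poisson 95% intervals, and ratios with exact conditional intervals. Intervals cover counting error only, and 0 UMIs were taken to allow up to 3. With 1 library per condition no test was possible. Thinning used seed 11. Named genes are listed genes with 20 or more UMIs in both classes together, the 25 highest and 25 lowest ratios among genes with 100 or more, and the 20 most variable genes with a mean of 0.5 or more UMIs after thinning. *Xist* and Y-linked genes were added once their values were known. The members and lists were chosen with earlier results of these data known. Some genes that the rule names are not reported here. Promoters came from RefSeq (GRCm38.p6), with those on chromosome 18 left out. Intervals were tested on simulated data. Python 3.11.15, numpy 2.4.6, scipy 1.17.1, pandas 2.3.3 and matplotlib 3.10.9 were used.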

Additional observations from a re-analysis of the deposited data

How the results depend on the processing

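The 1361 higher and 1020 lower genes stayed within 1.5 times under 15000 or 4000 UMIs as the depth limit, mitochondrial limits of 10% in both classes or 15% in beta cells, *Ins2* under 2%, median-of-ratios scaling, equal weight per cell and a minimum of 1 UMI per gene, between 1189 and 1859 higher and between 1013 and 1204 lower. With hormones and mitochondrial genes left out of the total, 815 were higher and 1941 lower. Thinning each cell to 8000 UMIs left 850 higher and 988 lower, or 46.2% of those past the fold on the higher side, and a minimum of 100 UMIs left 713 and 713, by construction on fewer genes. Subtracting the UMIs of macrophage-marked droplets gave 1526 higher and 1654 lower, an estimate that rests on 13 barcodes and includes the RNA of those cells themselves. Without the beta cells above the median of *Ddit3* 2009 were higher and 770 lower, 72.3% on the higher side, and *Ddit3* and *Hspa5* turned to 0.86 and 0.15. At 15000 UMIs *Hspa1b* and *Hspa1a* turned to 0.50 and 0.72, on at most 13 alpha UMIs. Apart from *Hspa5*, *Ddit3*, *Hspa1a* and *Hspa1b*, no named gene past the fold that could still be compared changed sign. Of 473 named genes between 397 and 473 could be compared under an alternative, 427 after thinning, 436 with free RNA subtracted and 397 at 100 UMIs. The share of the higher genes past the fold at 5 weeks was 70.6% with a limit of 500 UMIs and 69.7% with 2000, and in the library labelled WT 68.5% and 28.3%. Of the 20 most variable genes 20 were shared when thinned to 5000 UMIs and 17 without thinning. No paired analysis was possible because each condition has 1 library. Depth limits genes with few UMIs, for which a count of 0 allows up to 0.842 CPM in deep alpha, 0.204 in deep beta and 5.88 in deep delta cells.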
